A study of Mus musculus with 12 samples.

Results

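The normal expression programs of lung and liver were compared in the control mice of a study of pre-metastatic organs. The comparison used the 3 arrays of control lung and the 3 arrays of control liver, which are 6 of the 12 arrays in the series and were chosen by their labels. The control mice were female nude NCR mice, a strain without a working thymus, that had received an injection of PBS. Their lungs and livers were taken 7 days later. The other 6 arrays came from mice of the same strain that carried orthotopic 4T1 mammary tumors, and they served here only as a second measurement of the lung and liver difference. Total RNA of whole organs was hybridised as biotinylated cRNA to Affymetrix MOE430A_2 mouse arrays, 1 organ sample per array. The labels give both organs to the same set of control mice but do not tie a replicate number to a mouse, and they do not say whether samples were pooled. The p-values therefore measure only the spread between these arrays, and 3 arrays per organ set how precise a difference can be.

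The lung exchanges gas across thin alveolar type I cells, while cuboidal type II cells store and secrete surfactant, a lipid and protein film that lowers surface tension. A dense capillary bed, elastic matrix, airway secretory and ciliated cells and resident macrophages complete the organ. The liver is built mainly of hepatocytes, which secrete most plasma proteins, make bile acids and urea, store and release glucose and clear drugs, and which share the organ with fenestrated sinusoidal endothelium, Kupffer cells (the resident macrophages) and vitamin A storing stellate cells.

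Levels are GCRMA log2 expression values, and a difference is lung minus liver on that log2 scale, with its standard error (SE). Of 12393 genes with a probe set, 8270 had a value above 4 on at least 3 of the 6 arrays and were tested with limma. A gene was called at an adjusted p under 0.05, and a second count took only calls of 4-fold or more, a difference of 2 on the log2 scale. Where every array of the lower organ was at or under 4, or at the probe set's own lowest value, the fold is a lower bound and is written as "at least". A gene present in 1 organ passes the filter through that organ alone, so the counts of list members are descriptions, given over all members measured. For comparison with each list, 3768 of all 12393 genes measured were called in lung and 2937 in liver. Whole organs were profiled, so fewer cells of a type and less RNA per cell cannot be told apart.

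Some arrays had high values for transcripts known from another tissue, and the source of that RNA was not tested. Pearson correlations over all probe sets were 0.990 to 0.994 between lung arrays and 0.996 between liver arrays. Lung 1 and lung 2 correlated with the liver arrays at 0.794 to 0.800, and lung 3 at 0.820 to 0.822. The 19 measured hepatocyte markers had medians of 4.59, 3.14 and 10.82 on lung 1, 2 and 3 against 15.54, 15.56 and 15.57 on the liver arrays, and 19 of 19 were highest in lung 3 among the lung arrays. Among genes that passed the filter, the 10 with the largest SD among lung arrays were Ahsg, Apoa1, Apoa2, Cyp2c29, Fga, Fgb, Hpd, Serpina1b, Serpina1c and Ttr, which are hepatocyte products, and each was highest in lung 3. The 21 measured cardiac muscle genes had medians of 2.15, 6.67 and 7.52 on the lung arrays against 2.09, 2.11 and 2.09 in liver, and 18 of 21 were highest in lung 3. Cardiac genes that did not pass the filter varied as widely, with lung SDs of 5.19 for Myl7 and 4.80 for Myl4, both myosin light chains that were low on lung 1 and high on lung 2 and lung 3. Actc1, cardiac alpha-actin, measured 10.29, 12.29 and 12.62 on the lung arrays and 2.72, 2.76 and 2.61 on the liver arrays, a difference of 9.04 (SE 0.61, adjusted p = 2.67e-05). Without lung 3, the median difference of the hepatocyte list went from -9.30 to -11.59 and that of the cardiac list from 3.05 to 2.15. Among the liver arrays, liver 2 stood apart for a few genes, among them Ppbp and Sftpc, whose values are given below. Results for some of the hepatocyte genes are given with and without lung 3. Where 1 difference is given, it includes lung 3.

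**Figure D1:**
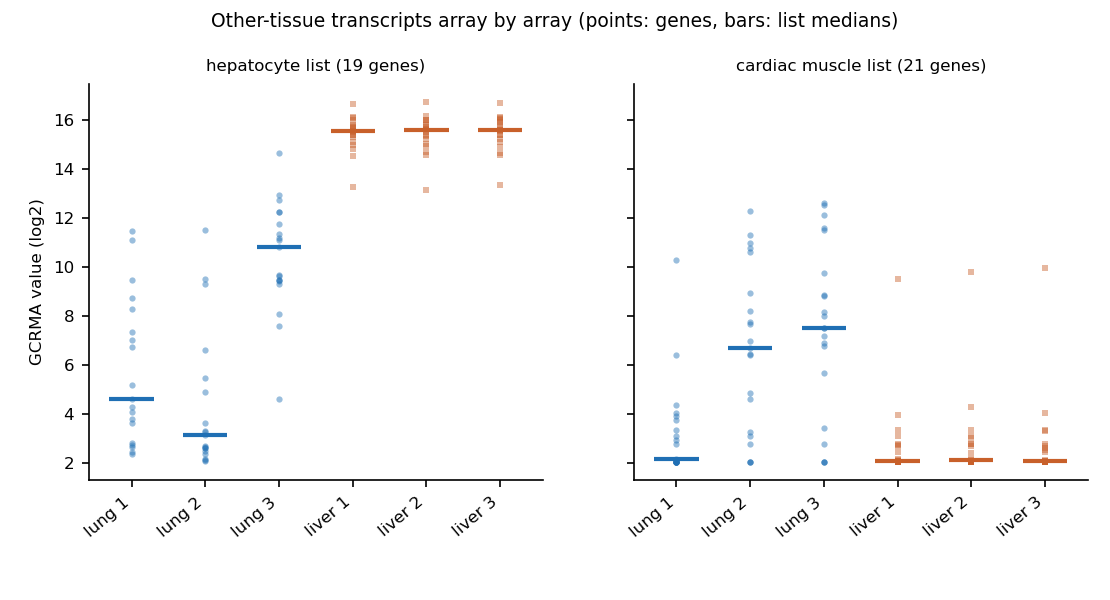
Level of each hepatocyte list gene (left, 19 genes) and cardiac muscle list gene (right, 21 genes) on the 6 control arrays, as GCRMA log2 values; points are genes and bars are list medians. Lung 3 lies above lung 1 and lung 2 for the hepatocyte list, with a median of 10.82, and lung 2 and lung 3 lie above lung 1 for the cardiac list, with medians of 6.67 and 7.52.

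Most genes differed between the organs. Of the 8270 genes tested, 3768 (45.6%) were higher in lung and 2937 (35.5%) were higher in liver at an adjusted p under 0.05. At 4-fold or more the counts were 1561 (18.9%) in lung and 1126 (13.6%) in liver. By the measured difference, not the lower bound, 388 liver calls and 267 lung calls were 64-fold or more, and 599 and 693 were 16-fold or more. In all 6705 genes (81.1%) were called. The lung and liver arrays did not overlap for 7013 genes (84.8%). The median difference was 0.18 over the genes tested and 0.00 over all genes measured, and the 5th and 95th percentiles were -5.65 and 5.22. A complete contrast, above 8 on all arrays of 1 organ and at or under 4 on all arrays of the other, was found for 236 lung and 220 liver genes. Lung calls made up 56.2% of the calls, and 67.7% when each array was centred on its proteasome genes, which moved the median difference to 0.56.

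**Figure D2:**
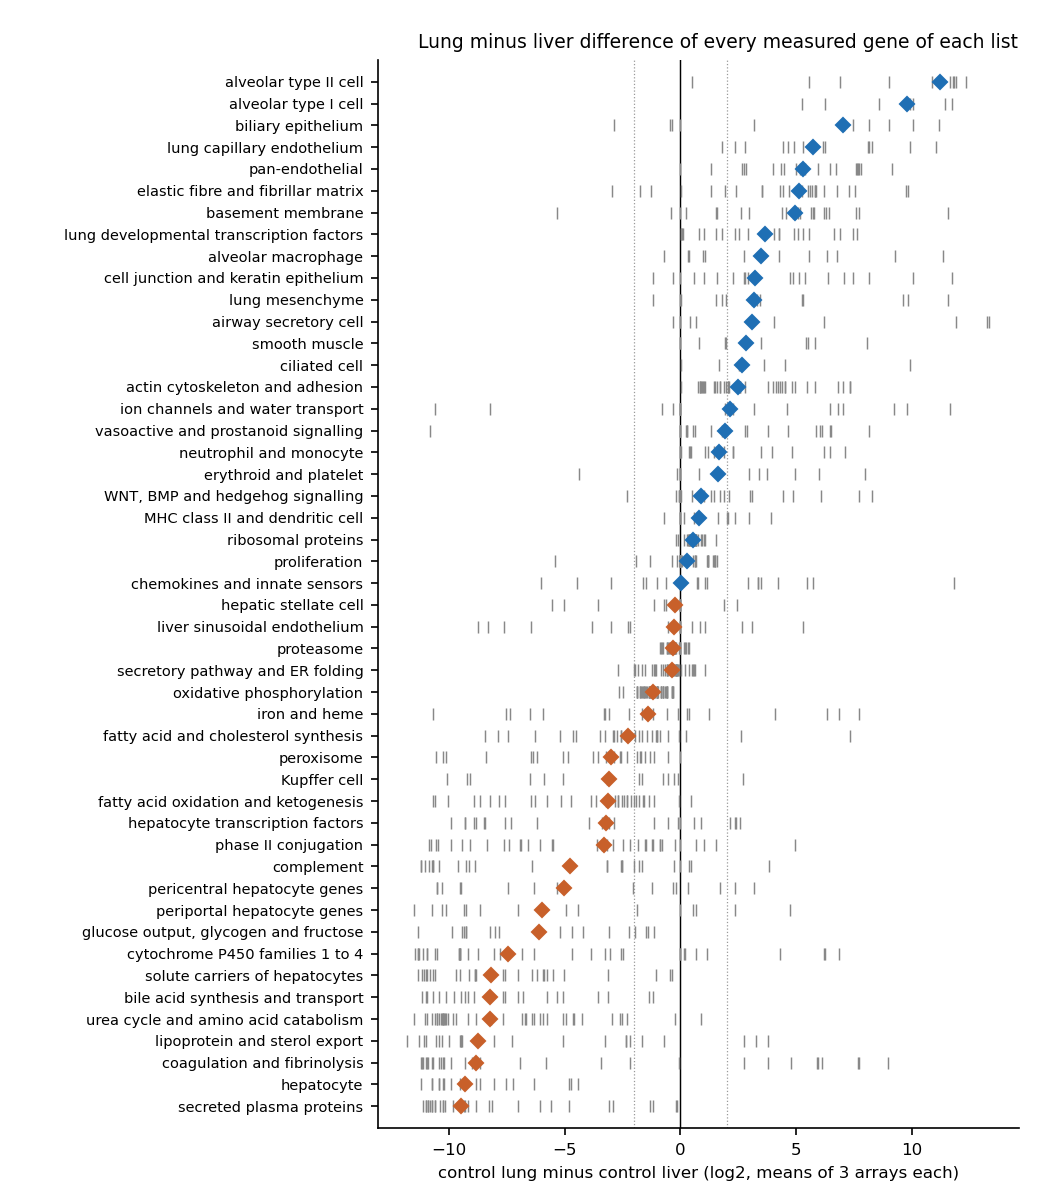
Lung minus liver difference (log2) of every measured gene in the gene lists drawn, 1 tick per gene. The list median is a diamond (blue above 0, orange below 0) and dotted lines mark the 4-fold bounds. Lists with 5 or fewer genes tested, such as the cardiac muscle list, are not drawn. The alveolar type II list has a median of 11.22 and the urea cycle and amino acid list a median of -8.22.

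Surfactant and alveolar epithelial genes were lung genes. Of the 11 measured type II cell markers, 11 were called higher in lung, 10 of them at 4-fold or more, with a median difference of 11.22. The surfactant protein genes were high on every lung array. Sftpa1, an innate immune collectin of surfactant, measured 15.23, 15.36 and 15.21 on the lung arrays and 2.52, 3.79 and 2.56 on the liver arrays, a difference of 12.31 (SE 0.35, adjusted p = 7.88e-07), at least 2460-fold higher in lung. Sftpb, needed for the surface film to form, measured 14.24, 14.46 and 14.21 on the lung arrays and 2.53 on each liver array, a difference of 11.77 (SE 0.09, adjusted p = 1.51e-08). The lung values of both genes lie within a narrow band and the liver values lie near the bottom of the scale. Sftpc, a hydrophobic surfactant protein of type II cells, measured 15.78, 15.79 and 15.70 on the lung arrays and 2.44, 6.54 and 2.63 on the liver arrays, a difference of 11.89 (SE 1.11, adjusted p = 0.000122). Liver 2 was the one liver array with a Sftpc value above 4. Sftpd, another collectin, differed by 11.22, and Slc34a2, the phosphate transporter of type II cells, by 11.62. The exception in size was Abca3, the lipid pump of lamellar bodies, which measured 12.70, 12.78 and 12.69 on the lung arrays and 12.33, 12.28 and 12.02 on the liver arrays. Its difference of 0.51 (SE 0.10, adjusted p = 0.00416) passed the test, and its 95% interval lay within 2-fold.

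The sequences upstream of a pair of surfactant genes are shown as examples of motif matches of the kind counted further on. They come from the RefSeq promoter table on build GRCm38.p6, are written 5′ to 3′ on the gene's strand and end at the base before the annotated start. The counts used longer windows that also take in bases after the start. Capitals mark matches to CTCAAG, the core recognised by NKX2-1, searched on both strands. Sftpb (chr6:72304500-72304609, plus strand) holds matches 100 to 95 and 15 to 10 bases before its start, and Sftpa1 (chr14:41131608-41131787, plus strand) holds 1 match 166 to 161 bases before it.
Sftpb: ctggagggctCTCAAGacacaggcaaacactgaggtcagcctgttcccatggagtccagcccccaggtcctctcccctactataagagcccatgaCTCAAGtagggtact
Sftpa1: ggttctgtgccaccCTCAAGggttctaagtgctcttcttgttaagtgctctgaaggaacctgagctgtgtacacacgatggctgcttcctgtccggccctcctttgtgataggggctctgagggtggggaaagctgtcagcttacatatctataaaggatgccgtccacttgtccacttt

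Type I cell markers followed the same pattern, with 9 of 9 measured genes called higher in lung at 4-fold or more and a median difference of 9.79. Ager, the membrane receptor that marks the thin type I cell, measured 14.74, 15.03 and 14.95 on the lung arrays and 3.70, 3.20 and 3.58 on the liver arrays, a difference of 11.41 (SE 0.16, adjusted p = 5.76e-08), at least 1920-fold higher in lung. Cldn18, a claudin of alveolar tight junctions, differed by 11.73, Aqp5, the apical water channel, by 9.79, and Pdpn, a mucin-like membrane protein, by 9.75. Hopx, a homeodomain protein, was well measured in both organs, at 15.13, 15.16 and 15.17 on the lung arrays and 9.84, 9.89 and 9.95 on the liver arrays. The 6 arrays of Hopx separate by organ, 38.4-fold higher in lung.

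Airway secretory genes included large lung differences and also genes that both organs express. Scgb1a1, the secretoglobin of club cells, measured 16.18, 16.15 and 16.06 on the lung arrays and 2.85, 3.31 and 2.22 on the liver arrays, a difference of 13.34 (SE 0.27, adjusted p = 2.12e-07), at least 4480-fold higher in lung. Cbr2, a carbonyl reductase of club cells, measured 15.55, 15.67 and 15.48 on the lung arrays and 2.29, 2.61 and 2.16 on the liver arrays, a difference of 13.22 (SE 0.14, adjusted p = 2.32e-08). Both genes stood at the top of the scale in lung and near the bottom in liver on each array. Scgb3a2, another secretoglobin, differed by 11.88. By contrast, Cyp2f2, the P450 that activates naphthalene in club cells and is also known from periportal hepatocytes, measured 14.70, 14.68 and 14.72 on the lung arrays and 13.97, 13.98 and 14.15 on the liver arrays, a difference of 0.67 (SE 0.08, adjusted p = 0.000385) with its interval within 2-fold. Aldh1a7, an aldehyde dehydrogenase, differed by -0.34 (adjusted p = 0.0113), which became -0.14 after further quantile normalization and 0.03 when arrays were centred on the proteasome genes. Of the 11 measured airway genes, 7 were called in lung and 1 in liver, and 3 did not pass the filter, Muc5b, Reg3g and Bpifa1.

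Of the 7 measured ciliated cell genes 6 were called higher in lung, with a median of 2.64. Tppp3, a tubulin-binding protein, measured 13.09, 13.34 and 13.09 on the lung arrays and 3.50, 2.68 and 3.63 on the liver arrays, a difference of 9.90. Foxj1, the master regulator of motile cilia, was low and uneven in lung, at 4.17, 6.42 and 5.89 on the lung arrays and 3.06, 3.01 and 2.85 on the liver arrays, a difference of 2.52 (SE 0.57, adjusted p = 0.00685). Junction and keratin genes of simple epithelia were called in lung for 18 of 21 measured genes and in liver for 2, with a median of 3.21. Krt19, a keratin of simple ducts, measured 12.05, 12.23 and 12.14 on the lung arrays and 4.67 on each liver array, and Epcam, an epithelial adhesion protein, differed by 7.05. Of 18 measured ion channel and water transport genes, 9 were called in lung and 3 in liver. Scnn1g, a subunit of the sodium absorbing channel, measured 11.46, 12.01 and 11.86 on the lung arrays and 2.54 on each liver array, a difference of 9.24 (adjusted p = 9.40e-08), and Scnn1a and Scnn1b differed by 4.61 and 6.80. Cftr, the chloride channel, was at least 37-fold higher in lung.

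**Figure D3:**
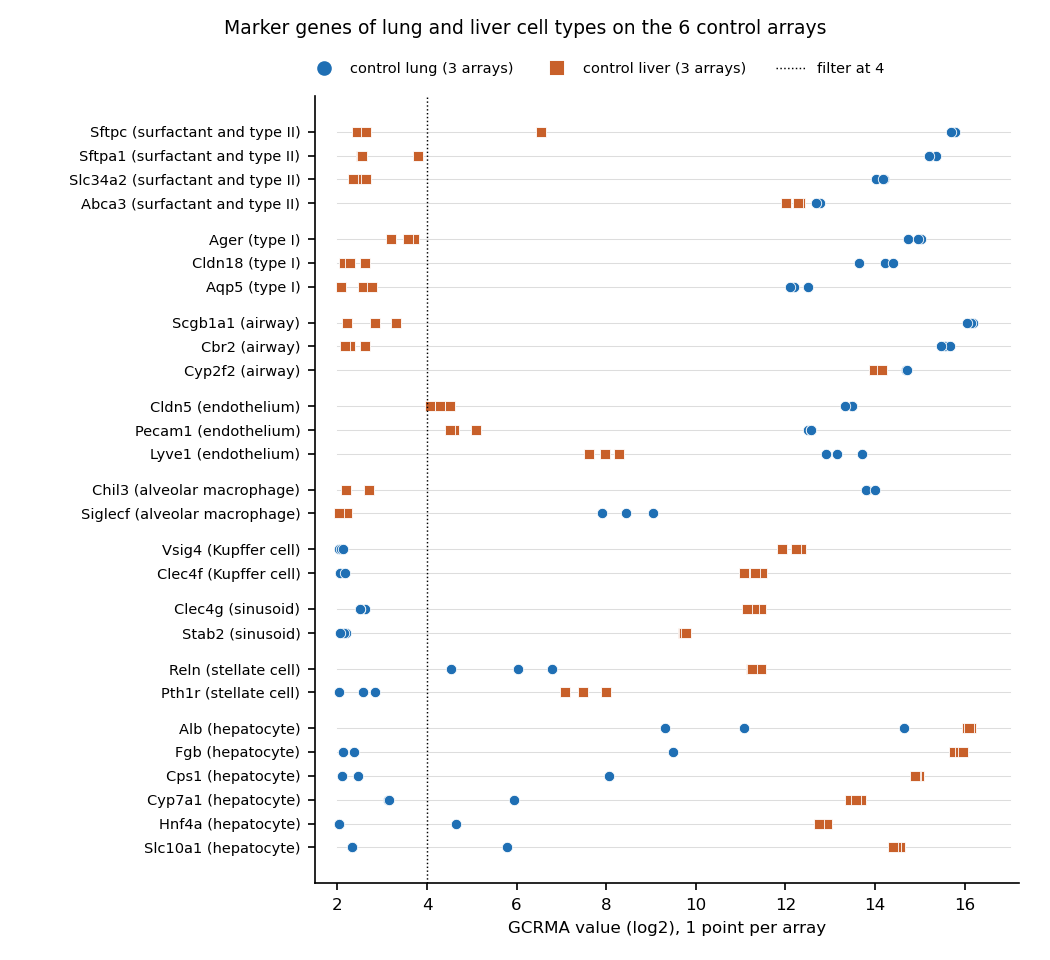
GCRMA log2 level of 27 marker genes on each of the 6 control arrays, lung arrays as circles and liver arrays as squares, with a dotted line at the filter value of 4. The surfactant, airway and endothelial markers shown sit to the right in lung. The plasma protein and Kupffer cell markers shown, and the sinusoidal genes Clec4g and Stab2, sit to the right in liver. Lyve1, drawn with the endothelium, is also on the sinusoidal list. Of that list 7 genes were called in liver and 6 in lung, beside 2937 and 3768 of all 12393 genes measured. Fgb shows 1 lung array, lung 3, at 9.48, far above the other lung arrays.

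Endothelial genes were higher in lung as a group. Of 20 measured pan-endothelial markers, 19 were called in lung and none in liver, with a median difference of 5.29. Pecam1, an adhesion protein of all endothelium, measured 12.50, 12.57 and 12.57 on the lung arrays and 5.10, 4.61 and 4.51 on the liver arrays, a difference of 7.80 (SE 0.17, adjusted p = 2.52e-07), 224-fold higher in lung. Cldn5, the endothelial tight junction claudin, measured 13.49, 13.49 and 13.33 on the lung arrays and 4.28, 4.07 and 4.52 on the liver arrays, 567-fold higher. The arrays of these genes separate by organ with wide margins. Of 14 measured genes linked to lung capillaries, 14 were called in lung, with a median of 5.71. Tmem100, a target of BMP and ALK1 signalling in endothelium, measured 13.42, 13.40 and 13.81 on the lung arrays and 2.72, 2.27 and 2.54 on the liver arrays, a difference of 11.03. Car4, a carbonic anhydrase on the capillary surface, differed by 9.93, and Acvrl1, the ALK1 receptor, by 8.28. Hpgd, which degrades prostaglandins, was expressed in both organs and differed by 1.79 (adjusted p = 7.10e-06).

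Liver sinusoidal endothelial genes were split. Of 19 measured, 7 were called in liver, 6 in lung, and 5 did not pass the filter. Of all 12393 genes measured, 2937 were called in liver and 3768 in lung. The list median was -0.26. Scavenger and lectin genes were called in both directions. Clec4g, a lectin, measured 2.62, 2.51 and 2.51 on the lung arrays and 11.45, 11.29 and 11.14 on the liver arrays, a difference of -8.75 (SE 0.10, adjusted p = 3.55e-08), and Stab2, the hyaluronan receptor, measured 2.19, 2.15 and 2.06 on the lung arrays and 9.71, 9.74 and 9.77 on the liver arrays, a difference of -7.60. Fcna, a ficolin, differed by -8.32. Neither Clec4g nor Stab2 had a lung value above 4. Stab1, a scavenger receptor related to Stab2, was higher in lung, by 0.84 (adjusted p = 0.00758), as was Mrc1, the mannose receptor, by 1.07 (adjusted p = 0.000639). Lyve1, a hyaluronan receptor often used for sinusoidal and lymphatic endothelium, went the other way and measured 13.70, 13.15 and 12.90 on the lung arrays and 8.28, 7.62 and 7.98 on the liver arrays, a difference of 5.29 (SE 0.26, adjusted p = 6.93e-06), 39-fold higher in lung. Wnt2, a ligand of sinusoidal cells and of lung mesenchyme, was also higher in lung, by 3.08, as was Kdr, the VEGF receptor, by 2.67. Of the genes called in lung, Lyve1, Mrc1, Wnt2 and Kdr also stand on lung lists.

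Matrix genes were mostly lung genes. Of 28 measured elastic fibre and fibrillar matrix genes, 24 were called in lung and 3 in liver, with a median of 5.10. Mfap4, an elastic fibre protein, measured 11.74, 12.69 and 11.93 on the lung arrays and 2.29 on each liver array, a difference of 9.83 (SE 0.25, adjusted p = 5.06e-07). Ogn, a small proteoglycan, differed by 9.75, Lox, which crosslinks collagen and elastin, by 7.28, and Eln, elastin itself, measured 8.60, 8.58 and 8.12 on the lung arrays and 2.69, 3.18 and 2.69 on the liver arrays, a difference of 5.58. The liver exceptions were Lum and Dcn, small collagen-binding proteoglycans, at -1.75 and -1.27, and Fn1, which encodes fibronectin, a matrix protein that hepatocytes also secrete into plasma. Fn1 measured 11.13, 11.37 and 11.19 on the lung arrays and 14.17, 14.26 and 14.17 on the liver arrays, a difference of -2.97 (SE 0.09, adjusted p = 9.11e-07), 7.85-fold higher in liver.

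Basement membrane genes were called in lung for 19 of 23 measured and in liver for 1, with a median of 4.96. Npnt, a ligand of integrin alpha 8, measured 13.95, 14.30 and 13.59 on the lung arrays and 2.40 on each liver array, a difference of 11.55, and Itga8, the integrin itself, differed by 8.07. Col4a3, a chain of the mature alveolar basement membrane, measured 10.35, 10.47 and 10.31 on the lung arrays and 2.61, 2.70 and 2.70 on the liver arrays, a difference of 7.71. The liver exception was Col18a1, the collagen that contains endostatin, which measured 6.89, 7.37 and 7.06 on the lung arrays and 12.46, 12.52 and 12.41 on the liver arrays, a difference of -5.35 (SE 0.14, adjusted p = 5.10e-07), 40.9-fold higher in liver. Smooth muscle genes were called in lung for 9 of 12 measured genes, with a median of 2.82. Acta2, smooth muscle actin, measured 12.23, 12.35 and 12.25 on the lung arrays and 6.74, 6.76 and 7.01 on the liver arrays, and Tagln, an actin-binding protein, differed by 5.79. The contractile gene differences stand beside the cardiac values above, and the part of heart RNA in them was not tested.

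Transcription factors of lung development were called in lung for 17 of 23 measured genes and in liver for none, and the other 6 did not pass the filter. Sox2, a factor of airway epithelium, measured 8.79, 8.61 and 9.44 on the lung arrays and 2.04 on each liver array, a difference of 6.90 (SE 0.22, adjusted p = 1.14e-06). Sox17, an endothelial factor, differed by 7.64, Hoxa5 by 7.43 and Tbx2 by 6.65. Nkx2-1, the factor that specifies lung epithelium, was not tested, since its values were 2.26, 3.94 and 3.11 on the lung arrays and 2.07 on each liver array.

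BMP pathway genes differed at several levels. Bmp6, a ligand known from liver endothelium as an inducer of hepcidin, was nevertheless higher in lung, at 11.19, 10.90 and 10.82 on the lung arrays and 3.37, 3.06 and 3.33 on the liver arrays, a difference of 7.72 (SE 0.14, adjusted p = 1.28e-07). The BMP response genes Id1 and Smad6 measured 11.45, 11.79 and 11.57 on the lung arrays and 5.62, 3.82 and 4.81 on the liver arrays and 11.58, 11.40 and 11.37 on the lung arrays and 5.14, 4.93 and 5.29 on the liver arrays, differences of 6.86 and 6.33. Smad7, an inhibitory SMAD, differed by 4.09. The arrays of these 4 genes did not overlap between the organs. Bmp2, a further ligand of the family, was higher in liver, by -2.31 (adjusted p = 0.000144). Of 27 measured WNT, BMP and hedgehog genes, 13 were called in lung and 1 in liver.

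Agt and Ace, both of the renin-angiotensin pathway, were called in opposite directions. Agt, the angiotensinogen substrate, measured 2.44, 2.44 and 3.23 on the lung arrays and 13.59, 13.57 and 13.42 on the liver arrays, a difference of -10.83 (SE 0.23, adjusted p = 2.62e-07), at least 738-fold higher in liver. Ace, the converting enzyme of capillary endothelium, measured 12.55, 12.64 and 12.50 on the lung arrays and 4.32, 4.62 and 4.32 on the liver arrays, a difference of 8.14 (SE 0.11, adjusted p = 4.96e-08), 283-fold higher in lung. Each gene was low on every array of the other organ. Of 23 measured vasoactive and prostanoid genes, 15 were called in lung and 1, Agt, in liver. Among them Edn1, the vasoconstrictor endothelin, differed by 6.50, Npr3, the natriuretic peptide clearance receptor, by 6.13, and Ptgis, prostacyclin synthase, by 6.04.

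The macrophage lists of the organs were called in opposite directions. Of 13 measured alveolar macrophage genes, 10 were called in lung and none in liver, with a median of 3.46. Chil3, a chitinase-like protein, measured 13.82, 13.80 and 14.00 on the lung arrays and 2.20, 2.71 and 2.71 on the liver arrays, a difference of 11.34 (SE 0.16, adjusted p = 6.26e-08). Siglecf, a sialic acid receptor of alveolar macrophages and eosinophils, measured 8.43, 9.04 and 7.91 on the lung arrays and 2.06, 2.21 and 2.04 on the liver arrays, and Itgax, CD11c, differed by 6.78. Marco, a scavenger receptor, did not pass the filter. Of 15 measured Kupffer cell genes, 12 were called in liver and 1 in lung, with a median of -3.07. Vsig4, a complement receptor, measured 2.04, 2.08 and 2.12 on the lung arrays and 11.93, 12.34 and 12.24 on the liver arrays, a difference of -10.09 (SE 0.12, adjusted p = 3.84e-08). Clec4f, a Kupffer cell lectin, differed by -9.21, and Cd5l, a secreted scavenger protein, by -9.10. The pan-macrophage genes Csf1r and Adgre1 differed by -0.52 and -0.75, and neither was called when arrays were centred on the proteasome genes (adjusted p = 0.445 and 0.0594). Id3, a BMP response gene placed on the Kupffer list, was the lung exception, at 2.71.

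The mice lack a working thymus, and genes of T cells were mostly at the bottom of the scale. Of 17 measured T and NK cell genes, 5 were called in lung and none in liver, beside 3768 and 2937 of all 12393 genes measured. The other 12 did not pass the filter. Cd3d, Cd3e and Cd3g, of the T cell receptor complex, and Cd8b1, a CD8 co-receptor chain, were at 2.04 on all 6 arrays, the lowest value of the scale, so they give no level in either organ. Cytotoxic genes were measured: Gzma, a granzyme of NK and T cells, measured 10.89, 9.90 and 9.99 on the lung arrays and 4.54, 5.36 and 4.13 on the liver arrays, a difference of 5.58 (SE 0.40, adjusted p = 3.81e-05), and Ccl5 and Nkg7 differed by 4.59 and 3.74. Cd2, an adhesion protein of T and NK cells, differed by 4.51 (adjusted p = 2.69e-06). Of 11 measured B cell and plasma cell genes, 2 were called in lung and 1 in liver. Ebf1, a B lineage factor, differed by 4.13 (adjusted p = 0.000211) and Cd79b, a B cell receptor subunit, by 2.00 (adjusted p = 0.00365), both higher in lung. Ighm, the IgM heavy chain, measured 9.60, 8.38 and 7.46 on the lung arrays and 10.02, 10.13 and 10.39 on the liver arrays and was called higher in liver, by -1.70 (adjusted p = 0.0241). The lung values of Ighm were spread over more than 2 log2 units, and without lung 3 the difference was -1.19. The call was lost without lung 2 (adjusted p = 0.0704) and without liver 1, 2 or 3 (adjusted p = 0.0548, 0.0608 and 0.0719). Dntt, the DNA polymerase of lymphocyte precursors, measured 2.37, 2.38 and 2.89 on the lung arrays and 8.22, 6.83 and 7.27 on the liver arrays, a difference of -4.89 (SE 0.37, adjusted p = 4.76e-05).

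Neutrophil and monocyte genes were called in lung for 11 of 18 measured genes and in liver for none. S100a8, a calcium-binding protein of neutrophils, measured 11.57, 13.51 and 12.72 on the lung arrays and 2.56, 8.02 and 5.95 on the liver arrays, a difference of 7.09 (SE 1.40, adjusted p = 0.00383). The liver arrays of S100a8 were uneven, with liver 2 highest, yet every liver array lay below every lung array. Lyz2, lysozyme of myeloid cells, differed by 4.82, and Chil1 by 6.46. Ppbp, a platelet chemokine, measured 11.91, 11.58 and 11.48 on the lung arrays and 2.48, 6.04 and 2.48 on the liver arrays, a difference of 7.99. Of 13 measured MHC class II and dendritic cell genes, 7 were called in lung and none in liver, with a median of 0.80. The MHC class II genes H2-Aa and Cd74, which present antigen on dendritic and B cells, differed by 2.34 and 2.03. H2-Eb1, another class II gene, differed by only 0.14. Of 27 measured chemokine and innate sensor genes, 9 were called in lung and 7 in liver, beside 3768 and 2937 of all 12393 genes measured. Cxcl15, the chemokine of lung epithelium, measured 14.58, 14.65 and 14.71 on the lung arrays and 2.36, 2.93 and 3.15 on the liver arrays, and Cx3cl1, fractalkine, was at least 19-fold higher in lung. Cxcl9, an interferon-induced chemokine, measured 2.07, 2.07 and 2.04 on the lung arrays and 8.95, 8.32 and 6.96 on the liver arrays, at least 16.9-fold higher in liver, and Cxcl1, a neutrophil attractant, differed by -4.48.

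Hepatocyte genes were liver genes. Of 19 measured markers, 19 were called in liver at 4-fold or more, with a median difference of -9.30. Most of them were raised on lung 3, which widened their errors. Fgb, the fibrinogen beta chain, measured 2.37, 2.13 and 9.48 on the lung arrays and 15.75, 15.89 and 15.97 on the liver arrays, a difference of -11.21 (SE 2.00, adjusted p = 0.00243), and -13.62 without lung 3. Serpina1c, an alpha-1 antitrypsin, measured 4.29, 2.63 and 11.73 on the lung arrays and 15.08, 14.99 and 15.07 on the liver arrays, a difference of -8.83 (SE 2.32, adjusted p = 0.0129), and -11.59 without lung 3. Alb, serum albumin, measured 11.08, 9.31 and 14.65 on the lung arrays and 16.05, 16.13 and 16.09 on the liver arrays, a difference of -4.41 (SE 1.30, adjusted p = 0.0204), and -5.90 without lung 3. The albumin call was lost without lung 1 (adjusted p = 0.0651) and without liver 1, 2 or 3 (adjusted p = 0.0553, 0.0568 and 0.0555), while all 6 arrays kept apart by organ. For these 3 genes the liver arrays stood close together, and the lung arrays were ordered alike, with lung 3 highest and lung 2 lowest. Ahsg, fetuin A, differed by -10.73 (-13.08 without lung 3), and Apoa2, an HDL protein, by -8.06 (-10.42 without lung 3). Mouse Serpina1 genes are near-identical copies, so their probe sets may not tell them apart.

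Windows upstream of these 5 genes are shown because the hepatocyte account above turns on them and because they hold matches counted further on. They come from the same table and build. Capitals mark GTTAAT, the HNF1 half-site core, in Alb, Fgb and Serpina1c, TTGCNNAA, a C/EBP core, in Alb, Fgb and Ahsg, and TGTTTAC, a FOXA core, in Apoa2, on either strand, so a match to a minus-strand motif reads as its reverse complement. Alb is at chr5:90460760-90460869 (plus strand), Fgb at chr3:83049864-83049973 (minus strand), Serpina1c at chr12:103904951-103905060 (minus strand), Ahsg at chr16:22891905-22892014 (plus strand) and Apoa2 at chr1:171224944-171225053 (plus strand). The HNF1 half-site core began 32, 29 and 27 bases before the start in Alb, Fgb and Serpina1c. A match is a description of the letters and not of binding.
Alb: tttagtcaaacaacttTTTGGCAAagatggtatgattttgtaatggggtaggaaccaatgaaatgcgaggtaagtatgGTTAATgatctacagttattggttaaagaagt
Fgb: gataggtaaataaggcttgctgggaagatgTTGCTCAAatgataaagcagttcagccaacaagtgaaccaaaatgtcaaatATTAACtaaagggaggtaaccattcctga
Serpina1c: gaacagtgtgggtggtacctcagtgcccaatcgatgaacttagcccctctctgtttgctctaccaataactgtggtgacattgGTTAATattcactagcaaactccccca
Ahsg: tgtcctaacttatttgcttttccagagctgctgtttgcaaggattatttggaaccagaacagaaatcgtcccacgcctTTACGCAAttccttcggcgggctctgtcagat
Apoa2: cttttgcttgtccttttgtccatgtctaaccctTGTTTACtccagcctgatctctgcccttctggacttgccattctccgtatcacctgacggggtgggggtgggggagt

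Secreted plasma proteins were called in liver for 31 of 33 measured genes, with a median of -9.47. Afm, a vitamin E carrier, measured 2.50, 2.35 and 3.28 on the lung arrays and 13.90, 13.81 and 13.75 on the liver arrays, a difference of -11.11, and Igfals, which stabilises IGF in plasma, measured 2.08, 2.07 and 2.07 on the lung arrays and 11.01, 10.84 and 10.88 on the liver arrays, a difference of -8.84. Hp, the haemoglobin scavenger haptoglobin, was high in both organs at 14.27, 14.35 and 14.48 on the lung arrays and 15.53, 15.60 and 15.54 on the liver arrays, a difference of -1.19 (SE 0.08, adjusted p = 2.96e-05). Of 26 measured complement genes, 21 were called in liver and 2 in lung. The terminal components C9 and C8g differed by -11.20 and -11.02 and C4bp, an inhibitor of the classical pathway, by -11.21, while C1qa, made by macrophages, differed by -1.64. Cd55, a membrane inhibitor of complement, measured 10.60, 10.46 and 10.71 on the lung arrays and 6.63, 6.02 and 7.65 on the liver arrays, 14.1-fold higher in lung.

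Coagulation genes were called in both directions. Of 30 measured, 19 were called in liver and 9 in lung, beside 2937 and 3768 of all 12393 genes measured. The circulating factors were liver genes: F2, prothrombin, differed by -11.15, F9, the haemophilia B factor, by -10.95, and F13b, the carrier subunit of factor XIII, measured 2.04, 2.04 and 2.32 on the lung arrays and 13.28, 13.13 and 13.33 on the liver arrays, a difference of -11.11 (SE 0.11, adjusted p = 2.32e-08). The lung genes are known from the vessel wall, tissue or blood cells. Plat, the tissue plasminogen activator, measured 11.52, 10.80 and 11.10 on the lung arrays and 2.06, 2.06 and 2.42 on the liver arrays, a difference of 8.96 (SE 0.21, adjusted p = 3.70e-07). Thbd, the thrombin receptor thrombomodulin, measured 13.72, 13.91 and 14.02 on the lung arrays and 5.60, 7.17 and 5.93 on the liver arrays, 201-fold higher in lung. Vwf, von Willebrand factor, was 207-fold higher, and F3, tissue factor, 69.9-fold higher. F13a1, the catalytic subunit of factor XIII, differed by 5.91, so the 2 subunits of that factor were called in opposite directions. Tfpi, the tissue factor inhibitor, and Procr, the protein C receptor, differed by 3.77 and 4.78.

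Lipoprotein genes were called in liver for 21 of 24 measured and in lung for 3. Apob, the structural protein of VLDL, measured 2.89, 2.65 and 4.78 on the lung arrays and 15.33, 15.19 and 15.21 on the liver arrays, a difference of -11.80 (SE 0.56, adjusted p = 6.13e-06), and -12.47 without lung 3. Mttp, which loads lipid onto ApoB, differed by -9.46, and Abcg5, a sterol exporter, by -9.49. Apoe, which macrophages also make, differed less, by -3.26. The lung exceptions were Lpl, Pltp and Abcg1. Lpl, lipoprotein lipase, measured 13.08, 13.27 and 13.39 on the lung arrays and 9.34, 10.14 and 8.84 on the liver arrays, Pltp, the phospholipid transfer protein, measured 15.49, 15.42 and 15.48 on the lung arrays and 11.95, 12.47 and 12.15 on the liver arrays, and Abcg1, a cholesterol exporter of macrophages, measured 11.44, 11.50 and 11.56 on the lung arrays and 8.94, 8.69 and 8.61 on the liver arrays. Their differences were 3.80, 3.27 and 2.76.

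Amino acid and nitrogen metabolism was a liver program in nearly every member. Of 42 measured genes 40 were called in liver and none in lung, with a median of -8.22. Arg1, the last enzyme of the urea cycle, measured 2.20, 2.04 and 5.54 on the lung arrays and 14.84, 14.61 and 14.81 on the liver arrays, a difference of -11.49 (SE 0.95, adjusted p = 6.91e-05), and -12.63 without lung 3. Cps1, the first enzyme, measured 2.46, 2.10 and 8.07 on the lung arrays and 14.98, 14.91 and 14.90 on the liver arrays, a difference of -10.72, and -12.65 without lung 3. Ftcd, an enzyme of histidine and folate metabolism, was little affected by lung 3, at 2.13, 2.08 and 2.29 on the lung arrays and 13.25, 13.21 and 13.12 on the liver arrays, a difference of -11.03 (SE 0.09, adjusted p = 1.55e-08).

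Glucose genes were called in liver for 19 of 19 measured, with a median of -6.09. Slc2a2, the glucose transporter GLUT2, measured 2.07, 2.07 and 2.78 on the lung arrays and 13.69, 13.69 and 13.57 on the liver arrays, a difference of -11.34 (SE 0.21, adjusted p = 1.44e-07). G6pc, which releases free glucose, measured 2.64, 2.63 and 2.63 on the lung arrays and 11.29, 12.17 and 12.42 on the liver arrays, a difference of -9.33, and Gckr, the regulator of glucokinase, differed by -9.43. Fatty acid oxidation and ketogenesis genes were called in liver for 33 of 35 measured, with a smaller median of -3.11. The acyl-CoA synthetase and transporter gene Slc27a2 differed by -10.60, Bdh1, which makes the ketone body hydroxybutyrate, by -8.90, and Ppara, the nuclear receptor of fasting, by -7.56. The core mitochondrial enzymes Acadm and Hadha differed less, by -2.14 and -1.77.

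Lipid synthesis genes were called in liver for 27 of 31 measured and in lung for 2, with a median of -2.27. Mlxipl, the carbohydrate response factor ChREBP, measured 2.90, 2.90 and 3.57 on the lung arrays and 11.70, 11.62 and 11.35 on the liver arrays, a difference of -8.43, and Thrsp, a lipogenic protein, differed by -7.86. Fasn, fatty acid synthase, was well measured in both organs, at 11.43, 11.71 and 11.44 on the lung arrays and 13.32, 12.86 and 12.74 on the liver arrays, a difference of -1.45 (SE 0.18, adjusted p = 0.000441). Acly, which makes cytosolic acetyl-CoA, differed by -1.04. Of the acetyl-CoA carboxylases, Acacb measured 3.42, 3.97 and 3.85 on the lung arrays and 9.21, 9.62 and 8.81 on the liver arrays, a difference of -5.47, and Acaca did not pass the filter. Scd2, a stearoyl-CoA desaturase, was the large lung exception, at 14.72, 14.71 and 14.66 on the lung arrays and 7.63, 7.54 and 6.92 on the liver arrays, a difference of 7.33 (SE 0.20, adjusted p = 6.00e-07), 161-fold higher in lung.

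Bile acid genes were called in liver for 23 of 23 measured, with a median of -8.22. Cyp7a1, the rate-limiting enzyme of bile acid synthesis, measured 3.14, 3.16 and 5.93 on the lung arrays and 13.44, 13.68 and 13.57 on the liver arrays, a difference of -9.49, and -10.42 without lung 3. Abcb11, the bile salt export pump, measured 2.04, 2.04 and 2.06 on the lung arrays and 13.13, 13.07 and 12.81 on the liver arrays, a difference of -10.96 (SE 0.10, adjusted p = 2.18e-08). Slc10a1, the bile acid uptake carrier, differed by -10.99 (-12.14 without lung 3), and Slco1b2, an organic anion carrier, by -11.15. Of 30 measured hepatocyte solute carriers, 29 were called in liver and none in lung.

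Drug metabolism genes were not confined to liver. Of 37 measured P450 genes, 26 were called in liver and 5 in lung, beside 2937 and 3768 of all 12393 genes measured. Cyp2d26 differed by -11.47, Cyp3a25 by -11.28 and Cyp2a12 by -11.31, and Cyp4f14 was at 2.04 on each lung array and 12.62, 12.67 and 12.57 on the liver arrays. These families hold near-identical copies that a probe set may not tell apart. Cyp4b1, which activates fatty acids and furans, measured 14.83, 14.84 and 14.76 on the lung arrays and 8.78, 8.48 and 8.62 on the liver arrays, a difference of 6.18 (SE 0.10, adjusted p = 8.72e-08). Cyp1a1, the aryl hydrocarbon receptor target, measured 10.85, 10.78 and 10.79 on the lung arrays and 4.51, 4.67 and 4.48 on the liver arrays, a difference of 6.25, and Cyp2s1 measured 11.30, 11.34 and 11.65 on the lung arrays and 4.48, 4.48 and 4.78 on the liver arrays, a difference of 6.85. Cyp2b10, the phenobarbital-inducible P450, measured 14.10, 14.13 and 14.32 on the lung arrays and 9.03, 10.72 and 9.86 on the liver arrays, a difference of 4.31, while its relative Cyp2b9 was a liver gene, at -9.54.

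Conjugating enzymes were called in liver for 29 of 36 measured and in lung for 4, with a median of -3.29. The glucuronosyltransferases Ugt2b5 and Ugt2a3 differed by -10.86 and -10.79, and Nnmt, which methylates nicotinamide, by -9.07. The glutathione transferases Gstm1 and Gstp1 were high in both organs and differed by -1.17 and -0.86. The lung genes were Mgst2, a microsomal transferase that measured 7.56, 6.97 and 6.71 on the lung arrays and 2.14, 2.12 and 2.12 on the liver arrays, and Inmt, Mgst3 and Gstm2, with differences of 1.55, 1.00 and 0.66.

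Iron genes were called in both directions. Of 20 measured, 12 were called in liver and 6 in lung, beside 2937 and 3768 of all 12393 genes measured. Tfr2, the transferrin sensor of hepatocytes, measured 2.51, 2.38 and 4.93 on the lung arrays and 13.88, 14.01 and 13.99 on the liver arrays, a difference of -10.69 (SE 0.69, adjusted p = 2.28e-05). Hamp, the iron hormone hepcidin, was high in liver and uneven in lung, at 3.83, 8.36 and 9.73 on the lung arrays and 14.49, 14.51 and 14.96 on the liver arrays, a difference of -7.35 (SE 1.49, adjusted p = 0.00425), and -8.56 without lung 3. Unlike albumin, Hamp was raised on lung 2 as well as lung 3, the pair of arrays with high cardiac values, and the part of heart RNA in this was not tested. Slc40a1, the iron exporter ferroportin, measured 6.25, 6.06 and 6.73 on the lung arrays and 13.01, 12.82 and 12.69 on the liver arrays, a difference of -6.49. Fth1, the ferritin heavy chain, was near the top of the scale in both organs and differed by 0.28 (adjusted p = 0.00699).

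Hepatocyte transcription factors were called in both directions. Of 25 measured, 15 were called in liver and 6 in lung, beside 2937 and 3768 of all 12393 genes measured. The list median was -3.22. Hnf4a, the central hepatocyte nuclear receptor, measured 2.04, 2.04 and 4.64 on the lung arrays and 12.82, 12.93 and 12.74 on the liver arrays, a difference of -9.92 (SE 0.72, adjusted p = 3.84e-05), and -10.79 without lung 3. The bile acid receptor Nr1h4 and the xenobiotic receptor Nr1i3 differed by -9.30 and -9.32. Foxa3 measured 2.65, 2.58 and 2.59 on the lung arrays and 11.41, 11.35 and 11.54 on the liver arrays, a difference of -8.83 (SE 0.08, adjusted p = 2.10e-08), whereas its relatives Foxa1 and Foxa2, which also act in lung epithelium, were higher in lung. Foxa1 measured 10.89, 10.87 and 10.95 on the lung arrays and 8.42, 8.28 and 8.30 on the liver arrays, a difference of 2.57, and Foxa2 differed by 0.91. Cebpa, shared with type II cells and macrophages, measured 10.74, 11.26 and 10.69 on the lung arrays and 12.29, 11.95 and 11.88 on the liver arrays, a difference of -1.14.

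Genes of both liver zones were mostly called in liver. Of 17 measured pericentral genes 12 were called in liver and 4 in lung, and of 16 periportal genes 11 and 4. Lect2, a pericentral hepatokine, differed by -10.29 and Hal, a periportal histidine enzyme, by -10.11. Glul, glutamine synthetase, the classic pericentral gene, was nearly level between the organs, at 13.62, 13.78 and 13.96 on the lung arrays and 14.06, 14.04 and 14.18 on the liver arrays, a difference of -0.31 (adjusted p = 0.0375) that became 0.06 when arrays were centred on the proteasome genes. The Glul call was lost when any 1 of the arrays other than lung 3 was left out, with an adjusted p of 0.0642 to 0.104. Axin2, a WNT target, and Cdh1, E-cadherin, were higher in lung, by 1.71 and 4.75.

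Stellate cell and biliary lists did not follow the hepatocyte list. Stellate cell genes were called in liver for 4 of 13 measured and in lung for 2, beside 2937 and 3768 of all 12393 genes measured. Reln, the glycoprotein reelin, measured 6.02, 4.53 and 6.78 on the lung arrays and 11.46, 11.24 and 11.26 on the liver arrays, a difference of -5.54 (SE 0.55, adjusted p = 0.000167), and Pth1r, the parathyroid hormone receptor, differed by -5.03. Lrat, which stores vitamin A as esters, was higher in lung, at 9.17, 10.11 and 8.86 on the lung arrays and 7.79, 7.68 and 6.98 on the liver arrays, a difference of 1.90, as was Pdgfrb, a pericyte receptor, by 2.43. Biliary epithelial genes were called in lung for 8 of 12 measured and in liver for none, with a median of 7.02. Tspan8, a tetraspanin, measured 13.60, 13.53 and 13.51 on the lung arrays and 2.39, 2.42 and 2.39 on the liver arrays, and Muc1, Krt7, Krt19, Epcam, Cldn7, Cftr and Aqp1 were the other genes called. Of these others, Cftr and Aqp1 stand on the ion channel and water transport list too, and the rest stand on lung lists.

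Apart from the cardiac list and the erythroid and platelet list, markers of other tissues were mostly at the bottom of the scale. Of 13 measured erythroid and platelet genes, 6 were called in lung and 1 in liver, beside 3768 and 2937 of all 12393 genes measured. Their medians were 6.99, 5.62 and 5.22 on the lung arrays, highest on lung 1, and 2.50, 2.89 and 2.49 on the liver arrays. None of 12 measured skeletal muscle genes passed the filter. Of 13 measured pancreas and gut genes, 3 were called in liver, Fabp2, an intestinal fatty acid carrier, by -9.44, Cela1, an elastase, by -4.99, and Lgals4, a galectin, by -3.06. Car3, a carbonic anhydrase of muscle, fat and liver, measured 5.24, 10.39 and 12.24 on the lung arrays and 15.33, 15.35 and 15.50 on the liver arrays, a difference of -6.10 (SE 1.74, adjusted p = 0.0177, and 0.0512 without liver 3). Csrp3, a muscle LIM protein, was not called, at 3.92, 7.75 and 8.81 on the lung arrays and 9.50, 9.77 and 9.97 on the liver arrays, with a difference of -2.92 and an adjusted p of 0.0699. It was called without lung 1, at -1.47 (adjusted p = 0.0147), and without lung 3, at -3.91 (adjusted p = 0.0275).

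The medians of core machinery lists ran from -3.01 for peroxisome genes to 2.49 for actin genes. Ribosomal protein genes were called in lung for 24 of 27 measured and in liver for none, with a median of 0.56. Their 95% intervals lay within 2-fold for 22 of 27, against 34.9% of all genes tested. Rps29 measured 16.24, 16.21 and 16.28 on the lung arrays and 15.98, 16.00 and 15.94 on the liver arrays, a difference of 0.27. Eef1a1, the elongation factor, measured 15.44, 15.50 and 15.40 on the lung arrays and 15.36, 15.32 and 15.38 on the liver arrays, a difference of 0.10 (SE 0.07, adjusted p = 0.234), and was not called. Respiratory chain genes were called in liver for 47 of 48 measured, with a median of -1.19 that stayed between -1.26 and -0.82 under the scalings tried. Peroxisome genes were called in liver for 24 of 25 measured, with 17 of them at 4-fold or more. Proteasome genes were called in liver for 19 of 31 measured and in lung for 3, with a median of -0.30. Secretory pathway genes were called in liver for 19 of 36 measured and in lung for 6, with a median of -0.36. Centring each array on its proteasome genes, which sets that list near 0 by construction, took the secretory median to 0.01. Actin cytoskeleton and adhesion genes were called in lung for 38 of 39 measured, 23 of them at 4-fold or more. S100a6, a calcium-binding protein, differed by 7.34, Gsn, which severs actin filaments, by 7.03, and Actb, beta-actin, measured 15.29, 15.32 and 15.18 on the lung arrays and 13.73, 13.75 and 13.87 on the liver arrays, a difference of 1.48 (SE 0.08, adjusted p = 1.14e-05).

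Related genes of 1 family were also set side by side. Of 45 pairs listed, 36 had both genes measured, and in 18 pairs the genes were called in opposite directions. Many pairs were listed as a gene known from each organ, so this count in part restates the choice. In glycolysis, Pkm, the pyruvate kinase of most tissues, measured 10.90, 11.46 and 10.82 on the lung arrays and 6.43, 6.50 and 5.66 on the liver arrays, a difference of 4.86, and Pklr, the liver enzyme, measured 3.27, 2.98 and 2.98 on the lung arrays and 11.11, 11.14 and 11.04 on the liver arrays, a difference of -8.02. Ldhb and Ldha, the subunits of lactate dehydrogenase, differed by 5.78 and -1.51. Hk2, a hexokinase of insulin-sensitive tissue, measured 8.91, 9.09 and 9.24 on the lung arrays and 3.16, 3.70 and 3.65 on the liver arrays, a difference of 5.57. Arg2, the mitochondrial arginase, measured 7.25, 7.72 and 6.73 on the lung arrays and 2.86, 2.57 and 2.37 on the liver arrays, a difference of 4.63 against -11.49 for Arg1. The aquaporin gene Aqp9, a glycerol channel, measured 2.41, 2.35 and 2.98 on the lung arrays and 13.21, 13.20 and 13.11 on the liver arrays, a difference of -10.59 against 9.79 for Aqp5. Elovl1 and Elovl2, which lengthen saturated and polyunsaturated fatty acids, differed by 2.60 and -11.57. Scd2 and Scd1 differed by 7.33 and -0.99, and Igfbp3 and Igfbp1, carriers of IGF, by 0.87 and -9.17.

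**Figure D4:**
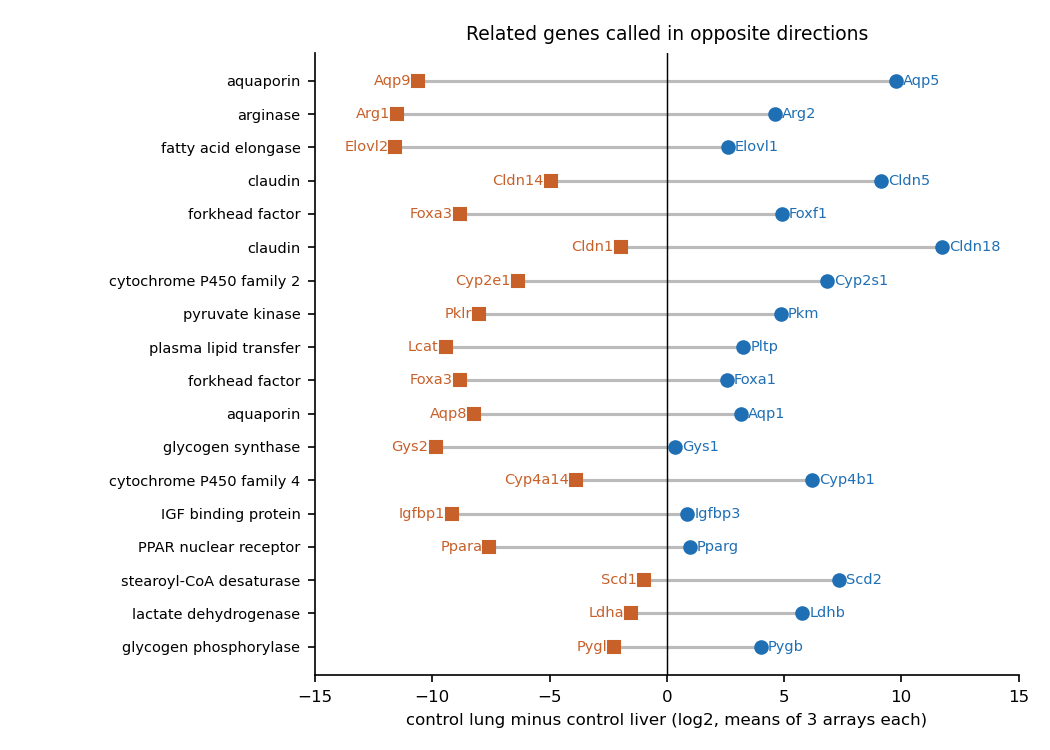
Lung minus liver difference (log2) of the 2 genes of each of the 18 family pairs called in opposite directions; each row is a pair, with the lung gene to the right of 0 and the liver gene to the left. The differences run from 0.36 for Gys1 (-0.13 and not called after further quantile normalization) to 11.73 for Cldn18 on the lung side and from -0.99 for Scd1 to -11.57 for Elovl2 on the liver side.

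Promoter letters differed with the size of the difference on the liver side. The RefSeq table on GRCm38.p6 gave a promoter around the annotated start for 6734 of the genes tested. Among them 4.4% held the HNF1 half-site core GTTAAT, against 7.2% of the 27025 promoters in the whole table. The share was 9.8% of genes called 4-fold higher in liver, 13.2% at 16-fold and 16.8% (54 of 321) at 64-fold, and 3.6%, 3.1% and 4.8% for the same steps in lung. AAAGTCC, an HNF4 core, was in 4.4% of tested promoters (4.3% of the table), in 7.5%, 10.2% and 13.7% for liver and in 4.8%, 4.9% and 3.7% for lung. The C/EBP core TTGCNNAA was in 8.8% (10.8% of the table), in 13%, 16.3% and 20.2% for liver and in 8.5%, 8.6% and 7.9% for lung. TGTTTAC, the FOXA core, was in 2.6% (3.5% of the table), in 4.4%, 5.7% and 6.2% for liver and in 2.8%, 3.1% and 3.2% for lung. CTCAAG, the NKX2-1 core, was in 14.2% (16.2% of the table), in 15.1%, 16% and 17.5% (33 of 189) for lung and in 13.8%, 12.6% and 12.8% for liver.

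Base composition moved with these shares. The median GC content was 60.7% over tested genes, 56.7%, 53.7% and 51.0% at the 3 steps in liver and 61.3%, 60.7% and 58.3% in lung. Promoters with 5 or fewer CpG made up 11% of tested genes, 57.9% of the genes called 64-fold higher in liver and 26.5% of those in lung. TATAAA was found in 7.8% of tested promoters (14.2% of the table), and in 19.6% and 17.5% of the 64-fold liver and lung genes. The part of base composition in the motif shares was not tested. The motifs were searched on both strands, and these shares describe letters only.

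**Figure D5:**
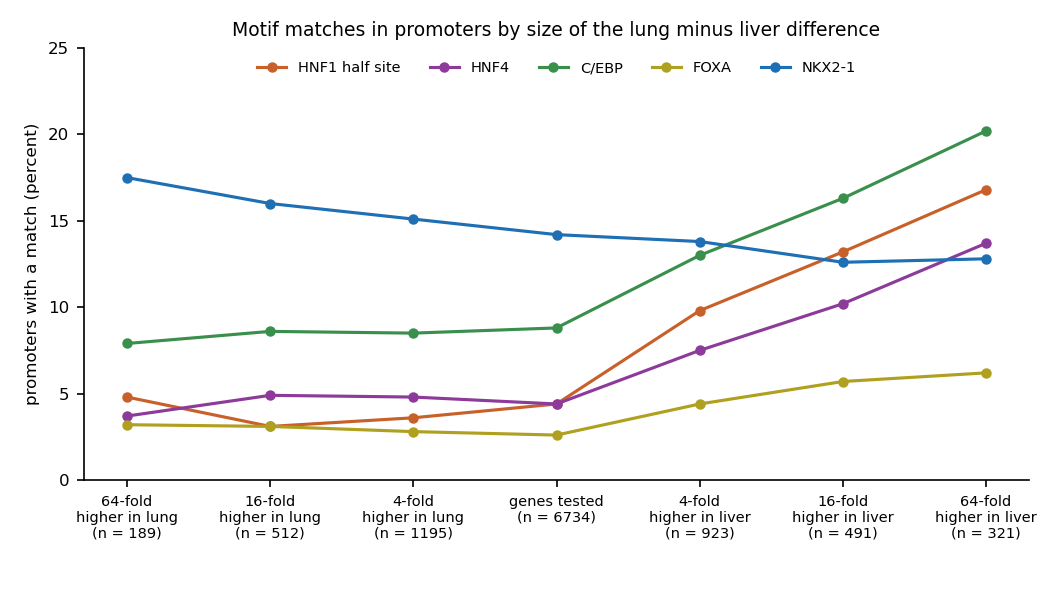
Percent of RefSeq promoters with a match to the HNF1 half-site core, HNF4, C/EBP, FOXA and NKX2-1 motifs in genes called at least 64-, 16- and 4-fold higher in lung, all genes tested, and genes called at least 4-, 16- and 64-fold higher in liver. The HNF1 half-site core goes from 4.4% of tested genes to 16.8% of the 64-fold liver genes.

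The same organ difference was measured in the tumor-bearing mice, which share no arrays with the controls. There, 3700 of 8286 genes (44.7%) were called in lung and 2619 (31.6%) in liver. Of the control calls, 90.2% of lung genes and 83.2% of liver genes were also called in tumor-bearing mice, and of the calls in tumor-bearing mice 91.9% and 93.4% were called in controls. Of the 2687 calls at 4-fold or more, 1 had the opposite sign there. The organ difference itself depended on tumor status for 131 of 8433 genes (1.55%) by the limma interaction.

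Genes at similar levels in both organs could be named by their intervals. The 95% interval lay within 2-fold for 2887 genes (34.9%), of which 1467 were called with a small difference. Another 145 genes were neither called nor bounded, so for these the arrays leave the difference unresolved. Of the genes above 14 on all arrays of an organ, 55 of 138 in lung and 110 of 186 in liver were called at 4-fold or more. Spread between arrays was small, with a median SD of 0.141 in lung and 0.128 in liver, and an SD above 1 was found for 172 genes in lung and 61 in liver. In liver the uneven genes included Vldlr, the VLDL receptor, at 6.84, 8.45 and 3.54, Serpina12, an adipokine, at 7.10, 5.44 and 10.09, and Sult5a1, a sulfotransferase, at 8.89, 4.87 and 9.38. The array that stood apart was liver 3 for Vldlr, liver 2 for Sult5a1 and none in particular for Serpina12.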

How the data were processed

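RNA of lung and liver from control and tumor-bearing mice was measured on 12 arrays. The deposited log2 values, 1 per probe set and array, were made by the authors with GCRMA, a method with sequence-based background correction and quantile normalization. The submitters' processing notes name limma too, both without a version. Quantile steps can shift all genes when organs differ in many, so other scalings were tried. Every array has the same lowest log2 value, 2.044, and 27.6% to 28.5% of control values lie within 0.05 of it.

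Of 22626 probe sets, 20380 had 1 gene symbol and were used, 691 had several genes and 1555 had none listed. Where several probe sets named 1 of the 12393 genes, that of highest mean across the series was kept. The lung and liver controls were tested by lmFit and eBayes of limma 3.58.1, run in R 4.3.3, with Benjamini-Hochberg adjustment over the 8270 genes above 4 on at least 3 arrays. Tables and plots used Python 3.11.15, pandas 2.3.3 and matplotlib 3.10.9. Tested on simulated data with 200 changed genes, this fit recovered 66% at a log2 difference of 1 and 92% at 2, with 10 and 8 false calls. The simulation changed 200 of 8270 genes, whereas 6705 were called between the organs. Its recovery and false call counts are therefore not those of the real contrast.

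The comparison and the 56 gene lists, in which 1206 of 1368 memberships matched a gene, were chosen with earlier results of these data known. The rule named the 15 largest differences in each direction, the 3 largest of each list with exceptions of 4-fold or more, family pairs, the 10 most variable genes of each organ and the 10 highest genes bounded within 2-fold. Only part of those are printed, and 67 of the 235 genes in the text lie outside the rule and were chosen after their values were seen. Alternatives covered the filter, probe set choice, scaling, fit options, the replicate block, thresholds and each array left out. Promoters were taken from the RefSeq table by symbol.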

Additional observations from a re-analysis of the deposited data

Results flagged for a closer look

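The lung and liver difference was compared between control and tumor-bearing mice by the limma interaction over all 12 arrays. Among the genes named by rule or in the text, 8 differed at an adjusted p under 0.05, and each is given as control mice against tumor-bearing mice, on the log2 scale. Cd79b, a B cell receptor subunit, differed by 2.00 against 4.62 (adjusted p = 0.0187). H2-Eb1, a class II antigen presentation gene, differed by 0.14 against 1.22 (adjusted p = 0.0139). Ngp, a neutrophil granule protein, differed by 1.44 against 6.83 (adjusted p = 0.0139). Hmox1, heme oxygenase, differed by -0.11 against -1.52 (adjusted p = 0.0407). Tfrc, the transferrin receptor, differed by 0.39 against 1.87 (adjusted p = 0.0407). Slc40a1, ferroportin, differed by -6.49 against -4.79 (adjusted p = 0.0187). Smad7, an inhibitory SMAD, differed by 4.09 against 2.00 (adjusted p = 0.0139). Hk2, a hexokinase, differed by 5.57 against 4.46 (adjusted p = 0.0415).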

How the results depend on the processing

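Counts of calls kept their order of size under the alternatives tried. With 1 array left out at a time, 3591 to 3724 genes were called higher in lung, 2788 to 2874 higher in liver, 1536 to 1573 and 1119 to 1138 at 4-fold or more in lung and liver, and 2643 to 2750 were bounded within 2-fold. Testing against a 2-fold difference with limma treat, a stricter question, left 2020 lung and 1555 liver calls. Without the filter on low values 6513 genes were bounded within 2-fold, since genes at the bottom of the scale on all arrays then count. Further quantile normalization moved the median difference from 0.18 to 0.05 and the share of lung calls to 51.8%. Calls in the opposite direction numbered 21 with the mean of all probe sets, 4 after further quantile normalization and 2 with the probe set chosen on control arrays, and 0 under each other setting. Leaving out genes at their own lowest value on 4 or more arrays, chosen after seeing the data, gave 3768 lung and 2933 liver calls.

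The replicate number as a block gave 3699 lung and 2879 liver calls, and 1561 and 1126 at 4-fold or more. Deviations of same-numbered lung and liver arrays from their organ means correlated at 0.13, 0.03 and 0.11 over 6921 genes. Each lung array correlated best with the liver array of its own number, which is a hint from the data and not from the design. Same-numbered arrays of the tumor-bearing mice correlated at 0.13, 0.03 and 0.12. The labels do not tie a number to a mouse, so the numbers were not taken as pairs.

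Among the genes named, 5 reversed under 1 scaling. Centred on the proteasome genes, Aldh1a7 became 0.03, Glul 0.06 and Hmox1 0.27, and after further quantile normalization Gys1 became -0.13 and H2-Eb1 -0.32. Ighm was -0.26 with the mean of all probe sets. Apoa2 was not called without the filter (adjusted p = 0.0508). Where the cause of a change is not given by the setting itself, the cause was not tested. Probe sets near the bottom of the scale give no level, which limits the low side of most large folds.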
